A study of Mus musculus with 2 samples.

Results

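The genes described here encode the proteins that neutrophil precursors pack into their primary (azurophilic) granules, with 2 lysozymes and Ms4a3, a membrane protein gene of granulocyte-monocyte progenitors, counted with them. They are Mpo, Elane, Prtn3, Ctsg, Ms4a3, Lyz1 and Lyz2, which are 7 of the 23284 gene symbols measured. They were picked by symbol, and the set was chosen by the STAP-1 KO to WT ratios of the same 2 libraries, so those ratios are given as a description and no test is attached to them. Chronic myeloid leukemia (CML) was modelled in mice, and its leukemic stem cells (LSCs) were profiled by RNA-seq, with 1 library from WT cells and 1 library from STAP-1 KO cells. Donor LSK cells (lineage marker negative, Sca-1+, c-Kit+) of the C57BL/6J background were transduced with a retrovirus for human p210 BCR-ABL and GFP and transplanted into lethally irradiated congenic recipients together with normal marrow, and GFP+ CD45.2+ LSK cells were sorted at day 11 after the first transplantation from mice given as 8 to 14 weeks old. The WT group carried BCR-ABL with intact Stap1, and the STAP-1 KO group carried the same BCR-ABL vector with Stap1 disrupted, and no untransformed cells were measured. Stap1 codes for a signal-transducing adapter protein. How many mice stand behind each library is not given in the sources used here, and with 1 library per genotype a difference of genotype cannot be told apart from one of animals, sorting or library making.

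Primary granules form at the promyelocyte stage of neutrophil development, before secondary and tertiary granules appear, and their proteins are made in bulk during that window. Myeloperoxidase (Mpo) makes hypochlorous acid from hydrogen peroxide, while neutrophil elastase (Elane), proteinase 3 (Prtn3) and cathepsin G (Ctsg) are serine proteases that are stored in active form after cathepsin C has trimmed them. Transcription of these genes in myeloid progenitors is known to use PU.1, C/EBP, RUNX and MYB factors, and the mRNAs are lost again as the cells mature. Lysozymes cleave bacterial cell walls, Lyz2 being the form of macrophages and granulocytes and Lyz1 the form best known from Paneth cells of the gut.

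The 5 genes that stand together in the values below lie on 4 chromosomes, and Elane and Prtn3 are the only pair among them that is adjacent. Their promoters are printed because the 5 genes moved together, and each line holds the 250 bases before the RefSeq start in GRCm38.p6, read 5′ to 3′ on the gene's strand. Mpo lies at chr11:87793534-87793783 on the plus strand, Elane at chr10:79886062-79886311 on the plus strand, Prtn3 at chr10:79879417-79879666 on the plus strand, Ctsg at chr14:56102575-56102824 on the minus strand and Ms4a3 at chr19:11640852-11641101 on the minus strand. Capitals mark matches on either strand to letters that PU.1 (AGGAAG), C/EBP (TTNCNNAA), RUNX (TGTGGT) and MYB (TAACNG) factors are known to favour, or to the letters TATAAA of a TATA box.
Mpo: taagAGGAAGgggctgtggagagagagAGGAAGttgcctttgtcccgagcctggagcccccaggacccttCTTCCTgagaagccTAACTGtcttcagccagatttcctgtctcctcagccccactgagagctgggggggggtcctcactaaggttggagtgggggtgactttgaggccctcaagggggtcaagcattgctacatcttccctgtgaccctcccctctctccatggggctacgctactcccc
Elane: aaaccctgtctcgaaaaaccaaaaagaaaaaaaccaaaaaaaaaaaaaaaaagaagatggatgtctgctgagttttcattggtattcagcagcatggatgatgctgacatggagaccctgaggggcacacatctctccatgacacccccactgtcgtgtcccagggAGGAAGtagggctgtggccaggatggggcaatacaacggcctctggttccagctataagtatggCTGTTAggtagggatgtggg
Prtn3: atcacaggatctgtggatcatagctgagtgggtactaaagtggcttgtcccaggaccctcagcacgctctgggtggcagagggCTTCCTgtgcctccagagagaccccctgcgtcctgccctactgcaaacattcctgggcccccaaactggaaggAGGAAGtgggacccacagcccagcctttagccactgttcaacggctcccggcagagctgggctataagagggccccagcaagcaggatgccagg
Ctsg: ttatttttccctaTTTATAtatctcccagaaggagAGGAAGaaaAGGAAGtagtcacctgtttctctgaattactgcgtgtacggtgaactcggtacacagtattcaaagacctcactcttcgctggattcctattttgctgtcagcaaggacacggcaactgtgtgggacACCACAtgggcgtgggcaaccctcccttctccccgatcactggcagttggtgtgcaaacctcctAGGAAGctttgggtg
Ms4a3: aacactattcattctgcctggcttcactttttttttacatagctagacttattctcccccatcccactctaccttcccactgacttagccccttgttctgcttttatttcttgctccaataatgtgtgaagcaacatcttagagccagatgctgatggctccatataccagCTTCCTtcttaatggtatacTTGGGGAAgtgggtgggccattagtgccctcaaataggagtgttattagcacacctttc
The PU.1 letters were present in 5 of 5 of these promoters and in 29.5% of the 32851 mouse promoters of the same length. Mpo held them 3 times and Ctsg 3 times, Prtn3 held them 2 times, and Elane and Ms4a3 held them 1 time each. In Elane and Prtn3 the nearest match began 84 and 94 bases before the start, on the same strand in both. The MYB letters were found in Mpo and Elane (19.8% of all promoters), the C/EBP letters in Ms4a3 (36.8%), and the RUNX letters (14.05%) in Ctsg. The letters TATAAA (12.4%) were also found in Ctsg, on the opposite strand and 237 bases before the start, which is not the usual place of a TATA box. No matches overlapped. In GENCODE M21 the genes Mpo and Elane begin inside the printed stretch, and Prtn3 begins before it. The Elane and Prtn3 promoters were identical at 50.4% of 228 aligned bases. A match shows that the letters are there and says nothing about binding in these cells.

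Few facts of the libraries bear on the values. FPKM (fragments per kilobase of transcript, scaled to the size of the library) hides the read number, but low values fell on steps that put the effective depth at 7510000 reads (WT) and 10480000 reads (STAP-1 KO). Intervals below are 95% exact intervals on reads estimated from these depths, and they cover counting error only. Stap1 was at 62.0 FPKM in WT LSCs and 0.309 FPKM in STAP-1 KO LSCs. The markers of the sort differed between the libraries, with Kit at 468 and 30.1 FPKM, Ly6a (Sca-1) at 285 and 106 FPKM and Cd34 at 281 and 194 FPKM. Of the lineage markers used to exclude mature cells, Itgam (CD11b) stood at 1.82 and 1.56 FPKM, and Ly6c2, whose product the Gr-1 antibody also binds, stood at 20.5 and 98.0 FPKM. The Y-linked gene Eif2s3y was found in both libraries (69.3 and 44.9 FPKM), whereas Xist was listed at 0 in WT LSCs and at 0.849 FPKM in STAP-1 KO LSCs, a pair of genes that was looked up after other values had been seen.

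Mpo, Elane, Prtn3, Ctsg and Ms4a3 stood between 7.34-fold and 11.1-fold higher in STAP-1 KO LSCs, and Lyz2 stood 2.62-fold higher. Lyz1 was barely detected. A gene could be compared if it had at least 0.1 FPKM in both libraries. That left 6 of the 7 genes, of which 6 were at least 2-fold higher in STAP-1 KO LSCs and 5 at least 4-fold higher. Corrected for transcript length and GC content, Lyz2 was no longer past 2-fold and 5 of the 6 were. Among all 12507 genes with that level, 12.3% were at least 2-fold higher, 2.4% at least 4-fold higher and 22.9% at least 2-fold lower, figures that are given as background only because the genes were picked on this contrast. The median log2 ratio was 2.99 over the 7 genes, with Lyz1 at its value with 0.1 FPKM added, and -0.04 over the 10974 genes whose mean reached 1 FPKM. All 7 genes summed to 600 FPKM in WT LSCs and 4715 FPKM in STAP-1 KO LSCs, which is 0.0924% and 0.780% of the summed FPKM of the library. In bulk RNA, more cells that express a gene and more RNA of it per cell cannot be told apart.

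**Figure D1:**
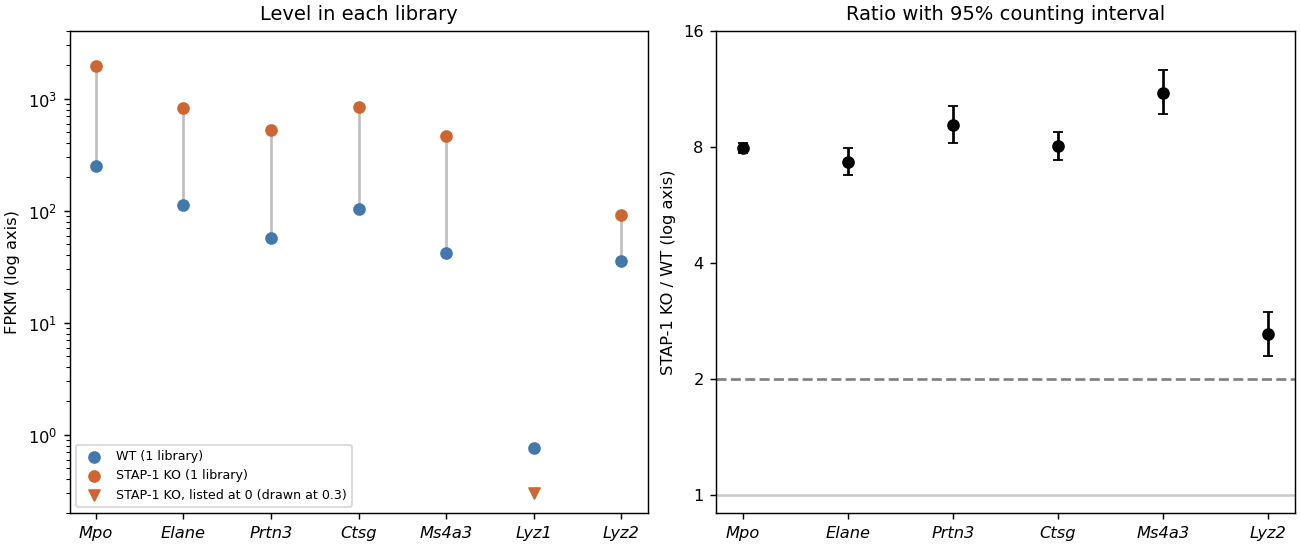
Level of each gene in the 2 libraries on a log FPKM axis (left; the triangle for Lyz1 marks a listed value of 0) and the STAP-1 KO to WT ratio with its 95% counting interval on a log axis (right; the dashed line marks 2-fold). The ratios of Mpo, Elane, Prtn3, Ctsg and Ms4a3 run from 7.34 to 11.1, and that of Lyz2 is 2.62.

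Mpo (chromosome 11, 87793581 to 87804413, plus strand, GRCm38) stood at 248 FPKM in WT LSCs and 1973 FPKM in STAP-1 KO LSCs. It had the highest level of the 7 genes in both libraries, and the ratio was 7.96 (interval 7.72 to 8.20). Ordered by FPKM among all genes without features under 200 bases, it moved from place 337 in WT LSCs to place 7 in STAP-1 KO LSCs. Of the 75-base windows of its transcript, 9.19% are shared with Gm11505, an antisense gene model inside Mpo, and reads of the pair cannot be separated without strand. Epx, the eosinophil peroxidase, stood at 1.02 FPKM in WT LSCs and 8.62 FPKM in STAP-1 KO LSCs, which rest on about 18.95 and 224 estimated reads. Lpo (lactoperoxidase) was at 0 and 0.0351 FPKM. Lpo, on the opposite strand, lies 2015 bases from Mpo end to end, and Epx lies 59587 bases away.

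The serine proteases came next in level. Elane (chromosome 10, 79886247 to 79888215, plus strand) stood at 112 FPKM in WT LSCs and 823 FPKM in STAP-1 KO LSCs, a ratio of 7.34 (6.77 to 7.97). Ctsg (chromosome 14, 56099881 to 56102574, minus strand) stood at 104 FPKM in the former and 841 FPKM in the latter, a ratio of 8.05 (7.41 to 8.75). The counting intervals of the levels of Elane and Ctsg overlapped in WT LSCs (104 to 121 and 96.4 to 113 FPKM) and in STAP-1 KO LSCs (804 to 844 and 821 to 861 FPKM), so their order is not resolved in either. Prtn3 (chromosome 10, 79874476 to 79883174, plus strand) was lower, with 57.4 FPKM in WT LSCs and 525 FPKM in STAP-1 KO LSCs. Its ratio of 9.14 (8.20 to 10.2) was larger than that of Elane, while its interval overlapped that of Ctsg. Inside a library, Elane exceeded Prtn3 1.95-fold in WT LSCs and 1.57-fold in STAP-1 KO LSCs, Mpo exceeded Elane 2.21-fold and 2.40-fold, and Mpo exceeded Ctsg 2.37-fold and 2.35-fold. No 75-base window of Elane, Prtn3 or Ctsg occurs in the transcript of another gene, and the closest windows of Elane and Prtn3 differ at 14 bases.

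Ms4a3 (chromosome 19, 11629496 to 11640851, minus strand) had the largest ratio of the set in the deposited values. Ms4a3 stood at 41.5 FPKM in WT LSCs and 460 FPKM in STAP-1 KO LSCs, 11.1-fold apart (9.77 to 12.7). It was place 26 among the 12507 genes ordered by ratio. The interval overlapped that of Prtn3 (8.20 to 10.2), so the order of these genes is not resolved. Corrected for transcript length and GC content, the log2 ratio was 2.78 in place of 3.47 for Ms4a3 and 2.37 in place of 3.01 for Ctsg. It was 3.12 in place of 2.99 for Mpo and 2.93 in place of 3.19 for Prtn3, so Ms4a3 was then no longer the largest. The level of Ms4a3 in WT LSCs overlapped that of Lyz2 within counting error (36.5 to 47.0 and 31.3 to 39.5 FPKM). In STAP-1 KO LSCs it was 460 against 92.0 FPKM. On the list of MS4A family genes, which leaves out Ms4a4d (0 and 0.0761 FPKM), 7 of 12 could be compared. Of these, 4 were at least 2-fold higher, Ms4a3 itself among them, and 1 was lower. Over all genes 12.3% were higher and 22.9% lower. Ms4a6b (2.89 and 16.02 FPKM), Ms4a6c (3.83 and 15.5 FPKM) and Ms4a4b (2.67 and 8.10 FPKM) went the way of Ms4a3. Ms4a2, the beta chain of the high-affinity IgE receptor of mast cells and basophils, lies 5777 bases from Ms4a3 and went the other way, from 163 to 18.0 FPKM.

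Lyz2 (chromosome 10, 117277331 to 117282321, minus strand) was at 35.2 FPKM in WT LSCs and 92.0 FPKM in STAP-1 KO LSCs, and its ratio of 2.62 (2.29 to 2.99) was the lowest of the 6 genes that could be compared. After correction for transcript length and GC content its log2 ratio was 0.78 in place of 1.38, which is less than 2-fold. Mpo exceeded Lyz2 7.05-fold in WT LSCs and 21.4-fold in STAP-1 KO LSCs. Lyz1 (chromosome 10, 117287797 to 117292868, minus strand) was at 0.757 FPKM in WT LSCs, about 5.95 estimated reads, and was listed at 0 in STAP-1 KO LSCs, where 3 reads would correspond to 0.272 FPKM. No fold is given for it. The genes lie 5476 bases apart, their transcripts are identical at 96.0% of 1262 aligned bases, and 44.7% of the 75-base windows of Lyz1 occur in Lyz2 with at most 2 mismatches, so the division of reads between the copies is uncertain. Lyzl1, Lyzl4, Lyzl6 and Spaca3, the other lysozyme family genes on the list, were at 0 in both libraries. The promoters of the pair are shown because near-identical copies differed in level, again with 250 bases before the RefSeq start (Lyz1 chr10:117292869-117293118 and Lyz2 chr10:117282273-117282522, both on the minus strand) and the same motifs in capitals.
Lyz1: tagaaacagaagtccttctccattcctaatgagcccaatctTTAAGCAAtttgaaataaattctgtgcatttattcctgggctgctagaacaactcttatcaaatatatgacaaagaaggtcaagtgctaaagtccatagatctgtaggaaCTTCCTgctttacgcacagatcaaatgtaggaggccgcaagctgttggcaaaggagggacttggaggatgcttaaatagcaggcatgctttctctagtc
Lyz2: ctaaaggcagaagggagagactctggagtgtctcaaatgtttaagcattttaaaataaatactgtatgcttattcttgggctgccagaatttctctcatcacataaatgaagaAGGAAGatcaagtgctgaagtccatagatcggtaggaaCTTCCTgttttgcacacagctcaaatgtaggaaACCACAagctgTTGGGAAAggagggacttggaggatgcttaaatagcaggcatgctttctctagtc
They were identical at 80.6% of 248 aligned bases. In GENCODE M21 Lyz2 begins inside the printed stretch, so distances from its start depend on the annotation. Both hold the PU.1 letters 99 bases before the start. Lyz2 has a further PU.1 match at 137 bases and a RUNX match at 66 bases before the start, neither of which Lyz1 has, and each holds 1 C/EBP match, at 209 bases in Lyz1 and at 55 bases in Lyz2. With these, the PU.1 letters were present in 7 of 7 promoters, beside 29.5% of all promoters. Lyz1 and Lyz2 share the match at 99 bases in promoters that are much alike, so they are not separate cases in that count.

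Of 1175 genes whose mean reached 100 FPKM, each with a transcript of 200 bases or more, 9 were at least 4-fold higher in STAP-1 KO LSCs, and 5 of these were Ms4a3, Prtn3, Ctsg, Mpo and Elane. This is a description, since the set was picked on these ratios, and Ms4a3 and Prtn3 reached that mean only through the STAP-1 KO library. The other 4 were Plac8 (150 and 1333 FPKM), Hba-a1, Tmem176b and Hmgn2. The genes nearest to the median position of the set on log2 FPKM axes of the 2 libraries, out of 6704 whose mean reached 10 FPKM, were Hba-a1 (34.8 and 380 FPKM), Tmem176b (64.5 and 280 FPKM), Apex1 (84.7 and 294 FPKM), Idh2 (110 and 367 FPKM) and Hmgn2 (62.5 and 251 FPKM), at distances from 0.860 to 1.07. Likeness here rests on 2 values per gene, and Hba-a1 has a near-identical copy, Hba-a2, whose value went the other way (773 and 15.9 FPKM), so that the division of their reads is uncertain.

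**Figure D2:**
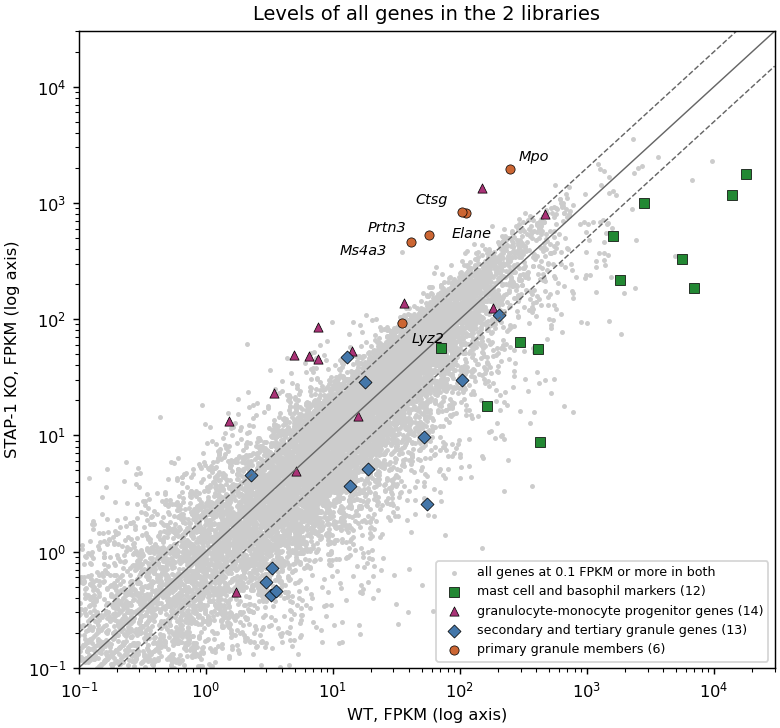
Each point is a gene with at least 0.1 FPKM in both libraries, WT on the x axis and STAP-1 KO on the y axis, both log FPKM; the solid line marks equal levels and the dashed lines 2-fold. The primary granule genes (orange circles) lie above the upper dashed line, as do 9 of 14 granulocyte-monocyte progenitor genes (triangles), while 11 of 12 mast cell and basophil markers (squares) and 9 of 13 secondary and tertiary granule genes (diamonds) lie below the lower one.

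Other genes linked to primary granules are given by list, and not all of their products are stored there (Calr acts in the endoplasmic reticulum). The counts are thus not counts of primary granule content. Each count here and in the next paragraphs is to be read against shares of all genes. These were 12.3% at least 2-fold higher and 22.9% lower. At those shares a list of 7 to 12 genes with 0 higher does not stand out. In the list of genes for processing and packing granule proteins, 9 of 10 could be compared, 1 was at least 2-fold higher and 5 were lower, with a median log2 ratio of -1.07. The gene that was higher was Prss57, a further serine protease of primary granules, at 7.22 FPKM in WT LSCs and 43.2 FPKM in STAP-1 KO LSCs. Those that were lower included Ctsc (cathepsin C, which activates the granule serine proteases; 1184 and 314 FPKM), Srgn (serglycin, the proteoglycan on which granule proteins are packed; 6691 and 1588 FPKM) and Cd63 (a granule membrane protein; 820 and 232 FPKM). Calr, a chaperone of myeloperoxidase in the endoplasmic reticulum, stayed within 2-fold (777 and 956 FPKM). Among the lysosomal hydrolases that primary granules also hold, 12 of 12 could be compared, 0 were at least 2-fold higher and 7 were lower, led by Ctsd (cathepsin D; 2453 and 480 FPKM). Of the granule protease inhibitors, 7 of 10 could be compared, 0 were higher and 3 were lower. These were Serpinb1a, an inhibitor of elastase, proteinase 3 and cathepsin G (1549 and 232 FPKM), Serpinb6a (67.0 and 16.5 FPKM) and Cst3 (1421 and 556 FPKM). Mast cells also hold serglycin, CD63, cathepsin C and lysosomal hydrolases in their granules, and 11 of 12 mast cell and basophil markers were lower in the same library (their sum was 52168 and 5395 FPKM). Their part in the lower values of these 3 lists was not tested.

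Granule genes of later neutrophil stages were mostly lower in STAP-1 KO LSCs. Of the secondary and tertiary granule genes, 13 of 15 could be compared, 2 were at least 2-fold higher and 9 lower, and the median log2 ratio was -1.87. The list also counts S100a8 (204 and 108 FPKM) and S100a9 (104 and 30.0 FPKM), whose products are not granule proteins in the strict sense. Chil3 stood at 54.6 FPKM in WT LSCs and 2.58 FPKM in STAP-1 KO LSCs, Ngp (neutrophilic granule protein) at 52.3 and 9.72 FPKM, Cd177 at 3.57 and 0.457 FPKM and Mmp8 (neutrophil collagenase) at 3.27 and 0.426 FPKM. The genes that were higher were Hp (haptoglobin; 12.9 and 46.8 FPKM) and Cybb (the catalytic NADPH oxidase subunit; 2.26 and 4.56 FPKM). Of the eosinophil granule genes, 3 of the 4 that could be compared were higher. Prg2 (major basic protein) was at 2.12 FPKM in WT LSCs and 61.7 FPKM in STAP-1 KO LSCs, on about 9.89 and 405 estimated reads, beside Epx and Prg3, while Ear2 was lower (6.91 and 2.78 FPKM).

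**Figure D3:**
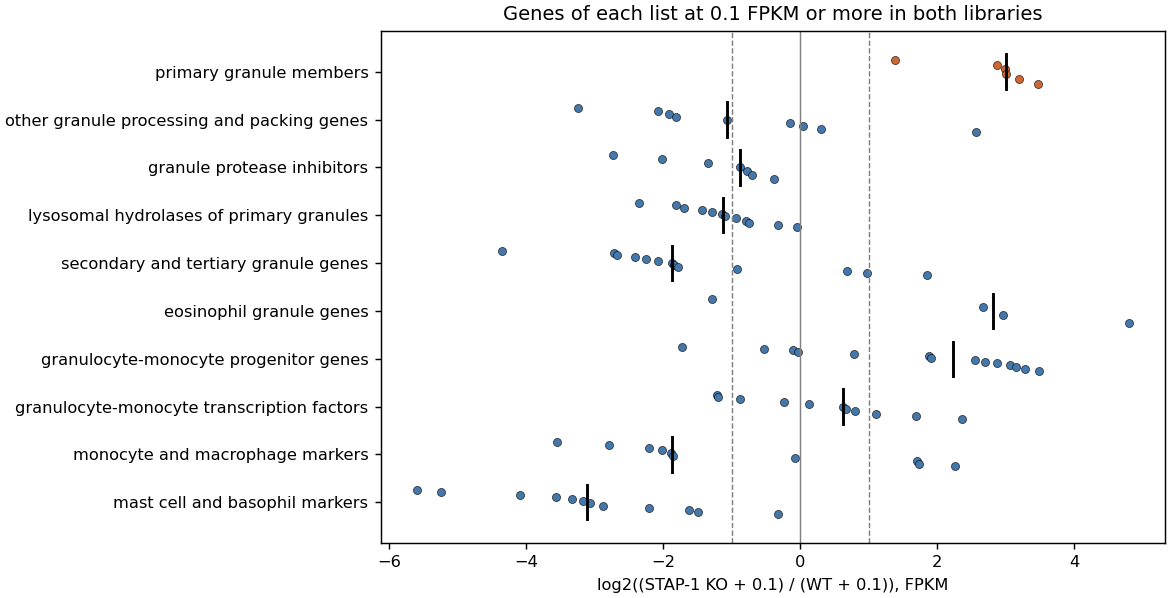
Log2 ratio of STAP-1 KO to WT with 0.1 FPKM added to each (x axis) for every gene of 10 lists that had at least 0.1 FPKM in both libraries, 1 point per gene; the black bar is the median of the points drawn and dashed lines mark 2-fold. The orange points lie between 1.38 and 3.47, whereas the medians of the processing, inhibitor, hydrolase and later granule lists lie below 0.

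Markers of the progenitor stage went with the primary granule genes more often than not. In the list of granulocyte-monocyte progenitor genes 14 of 14 could be compared, 9 were at least 2-fold higher, 7 of them at least 4-fold, and 1 was lower, with a median log2 ratio of 2.23. The largest ratios were those of Anxa3 (7.59 and 86.0 FPKM), Trem3 (4.92 and 48.9 FPKM), Plac8, and Csf3r, the receptor of G-CSF (1.51 and 13.3 FPKM). Fcnb, a ficolin gene, was lower (1.72 and 0.447 FPKM, about 12.3 and 4.49 estimated reads). Of the transcription factors whose favoured letters were searched above, the C/EBP genes Cebpa (0.768 and 4.36 FPKM, about 13.9 and 110 estimated reads), Cebpe (1.17 and 3.99 FPKM, about 8.97 and 43.0 reads) and Cebpd (1.69 and 3.78 FPKM) were at least 2-fold higher. Cebpb, the most abundant C/EBP gene on the list, stayed within 2-fold (82.5 and 69.7 FPKM). So did Spi1, which codes for PU.1 (84.5 and 92.7 FPKM), Myb (54.6 and 95.2 FPKM), Runx1 (22.8 and 12.3 FPKM) and Cbfb, the partner of RUNX factors (61.1 and 97.1 FPKM). Of all 11 factors on the list, 3 were at least 2-fold higher and 2 were lower, namely Irf8 (45.4 and 19.6 FPKM) and Klf4 (7.01 and 2.96 FPKM), both known from monocyte development. Monocyte and macrophage markers were split, with 3 higher and 6 lower among 10. Lgals3 was at 408 FPKM in WT LSCs and 34.8 FPKM in STAP-1 KO LSCs, while Ly6c2 was among the genes that were higher.

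Mast cell and basophil genes differed in the opposite direction. Of the 12 markers 12 could be compared, 11 were at least 2-fold lower in STAP-1 KO LSCs and 0 were higher, and none was at 0. Their sum was 52168 FPKM in WT LSCs and 5395 FPKM in STAP-1 KO LSCs, or 8.88% and 1.03% of the FPKM of features of 200 bases or more. Single genes ranged in WT LSCs from 71.1 FPKM (Prss34) to 17984 FPKM (Cpa3) and in STAP-1 KO LSCs from 8.74 FPKM (Tpsab1) to 1774 FPKM (Cpa3). The part of this difference in the ratios of the primary granule genes was not tested in separate cells. Scaling the libraries to equal summed FPKM shifted every log2 ratio by 0.10 from the deposited values. With equal sums without the mast cell markers the shift was -0.0042. These scalings change only the library totals, and a change in the share of mast cells was not tested by them. Markers of other lineages were low or mixed. Of the B cell markers, Pax5 and Ebf1 were listed at 0 in both libraries, and 1 of 6, Cd79b, could be compared (3.10 and 17.8 FPKM). The highest T cell marker was Cd3g at 1.80 and 5.04 FPKM, about 10.9 and 42.8 estimated reads. Of the 6 T cell markers 3 were higher and 1 was lower, all on few reads. The others that were higher were Cd4 (about 3.01 and 14.1 reads) and Cd2 (2.01 and 19.1), and Cd8a was lower (8.07 and 4.04). Among the erythroid markers 1 of 7 was higher and 3 were lower, and among the megakaryocyte markers 1 of 6 was higher and 2 were lower.

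Genes beside the primary granule genes differed in both directions, and 12.3% of all genes were at least 2-fold higher and 22.9% lower. Within 100 kb of Ctsg lie mast cell protease genes of the same family, and none of the 4 that could be compared was higher. Mcpt8 (14608 bases away; 2800 and 993 FPKM), Mcpt4 (1617 and 524 FPKM) and Mcpt2 (218 and 59.7 FPKM) were lower, and Mcpt1 was within 2-fold (379 and 286 FPKM). On the list for the granzyme, chymase and cathepsin G cluster, 9 of 15 genes could be compared and Ctsg was the only 1 that was higher. Against it 6 were lower, among them Cma1 (13924 and 1168 FPKM) and Gzmb (9642 and 2302 FPKM). Prtn3 ends 3073 bases before Elane begins. Of 10 neighbours of Prtn3 that could be compared, 3 were higher (Elane, Prss57 and Wdr18) and 2 were lower. Elane is itself of the set picked on this contrast, so it adds nothing to that count as a neighbour. Ptbp1, a splicing regulator gene between Prss57 and Prtn3, and Med16, beyond Elane, stayed within 2-fold. Around Mpo, Epx was higher and Rnf43 lower among 5 neighbours. Around Ms4a3, Ms4a6b and Oosp1 (0.201 and 0.575 FPKM) were higher and Ms4a2 was lower among 4 neighbours. Of the 2 neighbours of Lyz2 that could be compared, Yeats4 was higher (21.6 and 43.4 FPKM) and Cpsf6 was within 2-fold (39.0 and 47.8 FPKM).

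**Figure D4:**
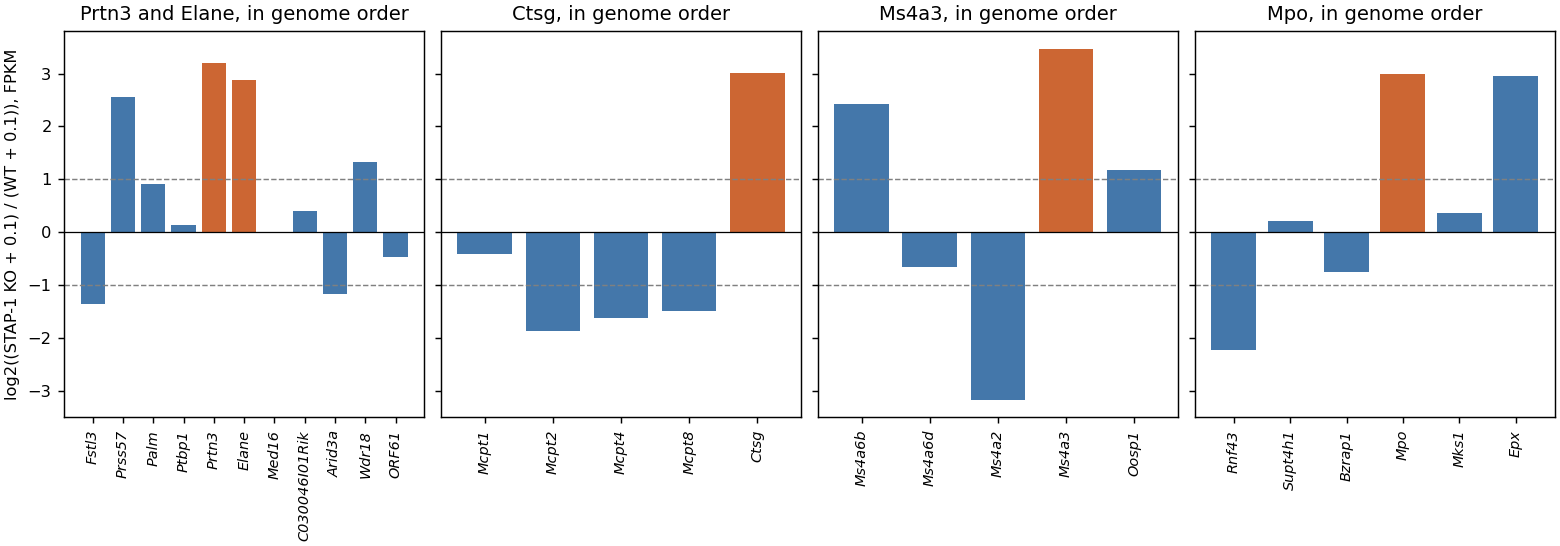
Log2 ratio of STAP-1 KO to WT with 0.1 FPKM added to each (y axis) for the protein-coding genes within 100 kb of Prtn3, Ctsg, Ms4a3 and Mpo that had at least 0.1 FPKM in both libraries, in genome order; orange bars are primary granule genes and dashed lines mark 2-fold. Ctsg stands at 3.01 beside 4 mast cell protease genes below 0, and Ms4a3 at 3.47 in a stretch with Ms4a2 at -3.17 and Ms4a6b at 2.43.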

How the data were processed

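RNA-seq of 1 WT and 1 STAP-1 KO library of CML LSCs was analysed. Per the labels and the study's methods, cDNA was made with SMART-Seq v4 and Nextera XT and read as 75-base single reads. The authors mapped them to mm10 with TopHat2 2.0.13 and Bowtie2 2.2.3 and deposited FPKM values made with Cufflinks 2.2.1 (Cuffnorm in the methods). The gene annotation and the total of reads are not given in the sources used here. For RNA extraction the labels and the methods name different kits.

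Ratios used the FPKM as deposited, and log2 ratios a pseudocount of 0.1 FPKM, which understates changes of low genes. Genes counted as higher or lower had at least 0.1 FPKM in both libraries and a ratio of at least 2, and list medians used genes whose mean reached 1 FPKM. Symbols were matched to GENCODE M21 (GRCm38) and to RefSeq synonyms (20911 as written, 1941 by an older symbol, 432 unmatched). Depth came from the steps of low FPKM values of genes with 1 transcript (42.5% of 386 WT values and 41.3% of 443 STAP-1 KO values within 0.02 of a whole read). Estimated reads are FPKM times transcript length less 216 (WT) or 212 (STAP-1 KO) bases times depth. Ratio intervals are exact conditional binomial (Clopper-Pearson) and level intervals exact Poisson, at 95%. The steps were tested on simulated data. With 1 library per genotype no p-value was computed. Promoters are RefSeq's (GRCm38.p6, 7 of 7 genes matched).

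Members and lists were chosen with earlier results of these data known. Genes named are the 7 members, Stap1, up to 4 per list and direction by size of log2 ratio, family members and neighbours that a sentence needs, and the 5 nearest in level; sorting markers and list genes named outside this rule were chosen after their values were seen. Some list genes that the rule selects are not reported here. Alternatives changed pseudocount, scaling, floor, fold cut-off, members and list minimum, and corrected for transcript length and GC content in 20 bins. Python 3.11.15, numpy 2.4.6, pandas 2.3.3, scipy 1.17.1, Biopython 1.88 and matplotlib 3.10.9 were used.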

Additional observations from a re-analysis of the deposited data

How the results depend on the processing

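No paired analysis was possible because each genotype has 1 library, and for the same reason no replicate could be left out. The direction of the median over the 7 genes (log2 ratio 2.99, with Lyz1 at its pseudocount value) was kept under the 10 alternatives tried. It was 3.10 with equal summed FPKM, 3.16 with equal summed FPKM of features of at least 200 bases, chosen after seeing the data, and 2.68 when corrected for length and GC content of the transcripts, a median over 6 genes because Lyz1 has no corrected value. Single genes ranged from 2.99 to 3.16 (Mpo), 2.57 to 3.04 (Elane), 2.93 to 3.36 (Prtn3), 2.37 to 3.18 (Ctsg), 2.78 to 3.64 (Ms4a3) and 0.78 to 1.55 (Lyz2). The 1538 genes of the whole table that were at least 2-fold higher became 300 at a 4-fold cut-off and 738 with a mean of at least 10 FPKM. The share of the 7 genes in the summed FPKM, 0.0924% in WT LSCs and 0.780% in STAP-1 KO LSCs, became 0.1004% and 0.787% without the mast cell markers in the sum, and 0.102% and 0.903% without features under 200 bases, a choice made after seeing the data. With a minimum mean of 5 FPKM the list medians kept their sign, and no T cell marker was left. Depth limits genes with few reads. Lyz1, Prg2, Prg3, Epx, Cebpa, Cebpe and Fcnb, among others, had under 20 estimated reads in WT LSCs.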
